A study of Mus musculus with 12 samples.

Results

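The 9 imprinted growth genes and long noncoding RNAs (lncRNAs) examined here were *H19*, *Meg3*, *Rian*, *Mest*, *Dlk1*, *Peg3*, *Plagl1*, *Grb10* and *Ndn*. They were chosen by name, through the Ensembl identifiers of their rows, from the 46983 genes listed, and all 9 had a row. RNA was sequenced from C2C12, a line of mouse myoblasts that can be brought to stop dividing and to form myotubes, in 4 groups of 3 libraries. WT_0d and WT_5d were the wild-type cells of the PB-IP group before differentiation and after 5 days of it. PPARγ/+_0d and PPARγ/+_5d were cells that carried the PPARγ coding sequence in the PiggyBac vector PB-IP and had been selected with puromycin, taken on the same days. The labels call the cells inducible, but neither an inducing agent nor the number of selected clones is given in the sources used here, so a difference between the cell types and one between clones cannot be told apart. The 3 libraries of a group were described as biological replicates, and p-values set a difference between groups against the spread between such libraries.

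An imprinted gene is expressed from the maternal or the paternal copy alone, according to DNA methylation laid down in the germ line. Such genes lie in clusters, and many of them set the growth of the fetus and the placenta or hold progenitor cells in an undifferentiated or quiescent state. *H19* is a maternally expressed lncRNA that shares enhancers with the paternally expressed growth factor gene *Igf2*, and both are known to be abundant in fetal and regenerating muscle. Reads of the parental copies were not separated in these data, so the values below are totals of both copies.

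The 9 genes spanned a wide range of levels in these cells. *H19* was among the most abundant RNAs of the differentiated cells and rose 8.81-fold in WT cells and 13.0-fold in PPARγ/+ cells from 0d to 5d. *Peg3* was expressed in every library, at a level 6.11-fold lower in PPARγ/+ cells than in WT cells on 0d, and it rose 3.77-fold in PPARγ/+ cells. *Mest* was near 1 FPKM, *Plagl1* and *Ndn* had group means of 0.0311 to 0.148 FPKM, and *Grb10*, *Meg3*, *Rian* and *Dlk1* were at or close to 0. FPKM is the number of fragments per kilobase of transcript, scaled to the mapped fragments of the library, so levels can be compared between genes of different length. The 5 members with at least 0.1 FPKM in at least 3 libraries were tested with limma on log2(FPKM + 0.1), and these folds are on that scale. Changes from 0d to 5d were called at an unadjusted p of at most 0.05 and a fold of at least 2, and differences between the cell types at an adjusted p of at most 0.05 and the same fold.

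The sequences below show the products and start regions that the results turn on. *H19* (ENSMUSG00000000031) is a lincRNA gene on chromosome 7, from 142575529 to 142578143 on the minus strand of GRCm38, and one of its exons holds the hairpin of *Mir675*. Both mature miRNAs of that hairpin are shown because they are the small RNAs carried by the most abundant member, with the seed (bases 2 to 8) in capitals. They lie at chr7:142577112-142577133 (miR-675-5p) and chr7:142577078-142577099 (miR-675-3p), on the minus strand, and their seeds differ.
mmu-miR-675-5p: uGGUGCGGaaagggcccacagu
mmu-miR-675-3p: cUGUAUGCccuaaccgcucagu
The libraries were not made for small RNAs, so neither miRNA was measured.

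The 250 bases before the start site are shown for *Peg3* and *Meg3*, as the coding member that differed most between the cell types on 0d and as a lncRNA with almost no reads. Capitals mark TGACGTCA, the cAMP response element, a palindrome that reads the same on both strands and that was looked for after the sequences were seen. The *Peg3* window is chr7:6730420-6730669 on the minus strand and the *Meg3* window chr12:109540746-109540995 on the plus strand (RefSeq, GRCm38.p6).
Peg3: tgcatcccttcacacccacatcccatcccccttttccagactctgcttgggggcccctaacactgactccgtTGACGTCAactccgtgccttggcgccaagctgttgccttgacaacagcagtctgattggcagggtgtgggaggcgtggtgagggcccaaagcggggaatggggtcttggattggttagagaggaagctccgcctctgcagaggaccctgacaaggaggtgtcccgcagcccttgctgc
Meg3: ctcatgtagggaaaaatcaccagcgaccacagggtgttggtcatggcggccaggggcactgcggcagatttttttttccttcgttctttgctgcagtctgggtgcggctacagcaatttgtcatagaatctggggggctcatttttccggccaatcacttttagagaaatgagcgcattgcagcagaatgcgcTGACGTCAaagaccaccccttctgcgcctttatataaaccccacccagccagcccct
The element began 178 bases before the start of *Peg3* and 57 bases before that of *Meg3*. It was present in 1.55% of the 32851 promoter windows of the same length and in no window of the other members. Only 8 of the 9 members had a window: *H19* had none, so its start region was not searched for any of these elements. The E-box CAGCTG, bound by myogenic factors, was found in 13% of all windows and among the members in a *Mest* window alone. The repeat of AGGTCA with 1 base between the copies, a form of the element bound by PPARγ with its partner RXR, was found in 0.0335% of all windows on either strand and in no window of a member. The *Peg3* and *Meg3* windows held 8 and 10 CpG sites, beside a median of 6 over all windows, and the methylation of these sites was not measured.

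**Figure D1:**
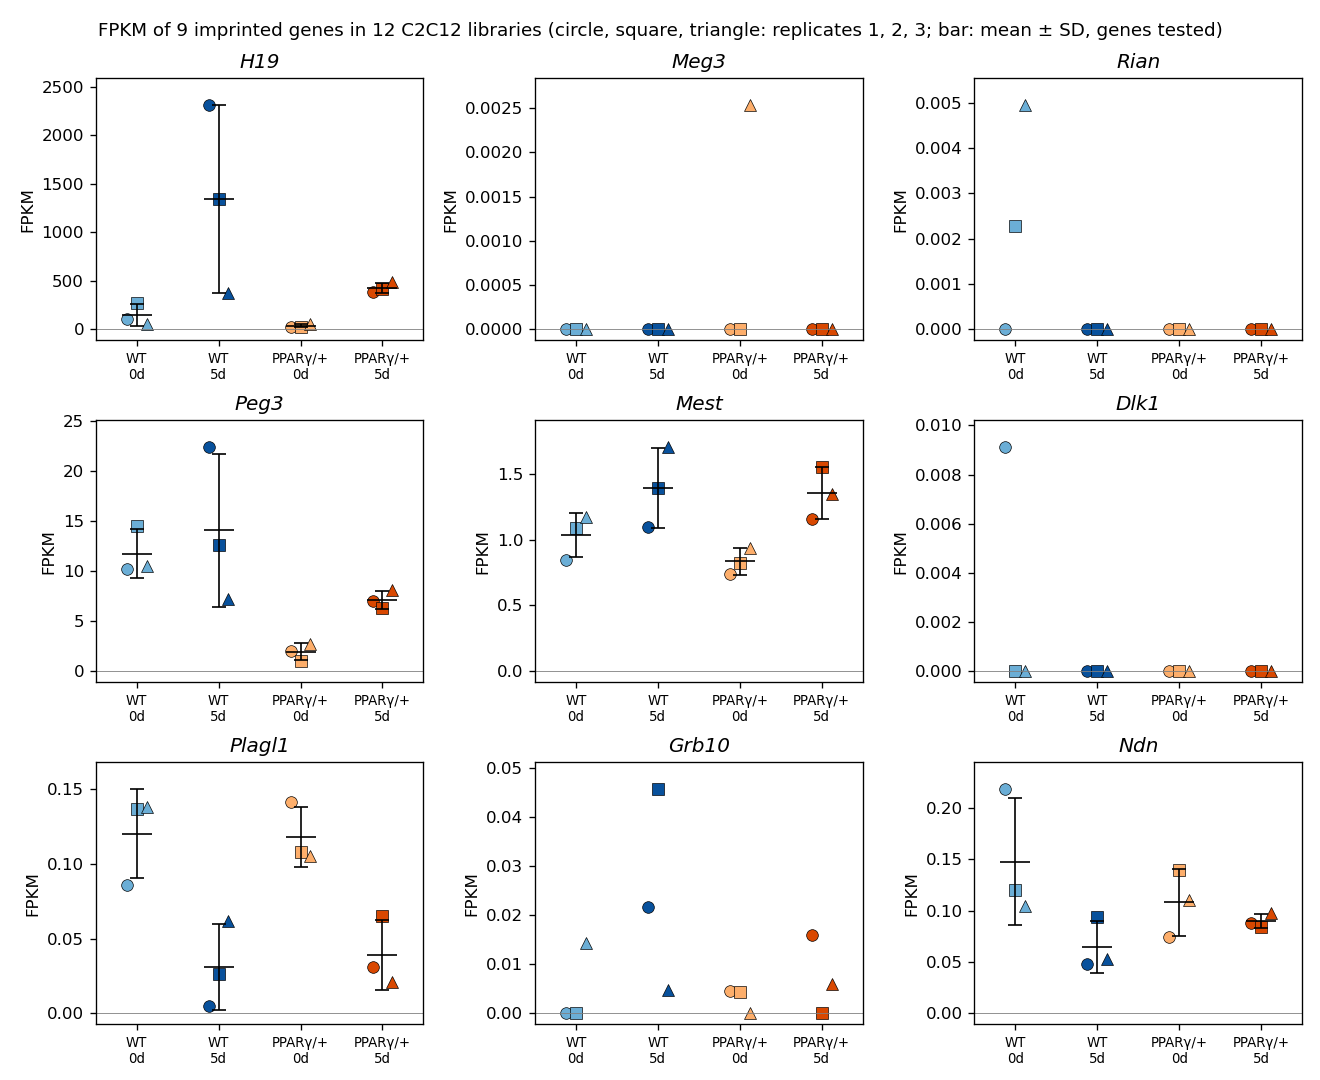
FPKM of each of the 9 genes on a linear axis with its own scale, by group, for 12 libraries (circle, square and triangle for replicates 1, 2 and 3), with mean ± SD (n = 3) for the 5 genes that were tested. *H19* reached 2306 FPKM and *Peg3* 22.4 FPKM in replicate 1 of WT_5d, whereas *Meg3*, *Rian* and *Dlk1* did not reach 0.01 FPKM in any library.

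Among the lncRNAs, *H19* was measured at 106, 269.8 and 58.3 FPKM in the 3 libraries of WT_0d, and at 2306, 1343 and 369.9 FPKM in those of WT_5d. In PPARγ/+_0d it was measured at 25.2, 25.2 and 53.7 FPKM, and in PPARγ/+_5d at 379, 418 and 482 FPKM. Every library on 5d lay above every library on 0d, and replicate 3 of WT_5d lay below all 3 libraries of PPARγ/+_5d. By order of FPKM, *H19* stood at places 7 to 79 among all genes in WT_5d and 58 to 75 in PPARγ/+_5d, against 109 to 707 in WT_0d and 788 to 2068 in PPARγ/+_0d. These values rest on 1457 to 139313 fragments per library, far above the counting floor of 3 fragments.

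From 0d to 5d, *H19* rose by 3.14 on the log2 scale of FPKM + 0.1 in WT cells (SE 0.81, 95% confidence interval 1.20 to 5.08, limma adjusted p = 0.0245), from 145 ± 111 to 1339.6 ± 968 FPKM (SD, n = 3). In PPARγ/+ cells it rose by 3.71 (SE 0.30, interval 3.0 to 4.41, adjusted p = 1.47e-04), from 34.7 ± 16.5 to 426 ± 52.3 FPKM. Without replicate 3 of WT_5d the log2 change in WT cells was 3.89, and over the omission of any single library it ranged from 2.57 to 3.89 in WT cells and from 3.52 to 4.07 in PPARγ/+ cells. The change in WT cells kept its call in each of these fits, with adjusted p-values from 0.0102 to 0.087.

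*Meg3* and *Rian*, the maternally expressed lncRNAs of the *Dlk1* to *Dio3* cluster on chromosome 12, were close to absent. *Meg3* (ENSMUSG00000021268, 109541001 to 109571726, plus strand), known as a growth-suppressing lncRNA, was read with 1 fragment in replicate 3 of PPARγ/+_0d (0.00253 FPKM) and was listed at 0 in the other 11 libraries. *Rian* (ENSMUSG00000097451, 109603940 to 109661716, plus strand), a host of small nucleolar RNAs and miRNAs, was read with 1 fragment in replicate 2 of WT_0d (0.00227 FPKM) and 2 fragments in replicate 3 of WT_0d (0.00494 FPKM), and was listed at 0 elsewhere. A count of 0 allows up to 3 fragments, which for *Meg3* corresponds to 0.00636 to 0.00893 FPKM and for *Rian* to 0.00662 to 0.00929 FPKM, depending on the depth of the library. These floors cover counting error only.

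*Dlk1* (ENSMUSG00000040856, chromosome 12, 109452823 to 109463336, plus strand), the paternally expressed gene of the same cluster, encodes a membrane protein known to hold back adipocyte differentiation. It was read with 1 fragment in replicate 1 of WT_0d (0.00911 FPKM) and listed at 0 in the other 11 libraries. Between the starts and ends of *Dlk1* and *Dio3* (109452823 to 110281097), 104 genes were listed, of which 100 stood at 0 in all libraries, and the highest value of any of them in any library was 0.0118 FPKM. This stretch was therefore at or near 0 in both cell types and on both days, apart from any small RNAs, for which the libraries were not made. No test of its members was made. *Begain*, outside this stretch but listed with the same domain, was read with 3 to 16 fragments per library and reached 0.164 FPKM.

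Among the coding members, *Peg3* (ENSMUSG00000002265, chromosome 7, 6703892 to 6730431, minus strand) encodes a large zinc finger protein of the paternal copy that is known from stem and progenitor cells. Its FPKM was 10.2, 14.5 and 10.5 in WT_0d and 22.4, 12.6 and 7.27 in WT_5d. In PPARγ/+ cells it was 1.99, 1.07 and 2.75 on 0d and 7.0, 6.33 and 8.09 on 5d. The 3 libraries of PPARγ/+_0d were below all other libraries, and those of WT_0d and WT_5d overlapped. In PPARγ/+ cells *Peg3* rose by 1.92 on the log2 scale from 0d to 5d (SE 0.31, interval 1.17 to 2.66, adjusted p = 0.00253), from 1.94 ± 0.841 to 7.14 ± 0.888 FPKM. The log2 difference in WT cells was 0.13 (SE 0.39, interval -0.82 to 1.09, adjusted p = 0.821), and it was -0.27 without replicate 1 and 0.53 without replicate 3 of WT_5d.

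*Mest* (ENSMUSG00000051855, chromosome 6, 30723547 to 30748465, plus strand), a paternally expressed gene of the alpha/beta hydrolase fold family, was measured at 0.849, 1.09 and 1.17 FPKM in WT_0d and at 1.09, 1.39 and 1.70 FPKM in WT_5d. In PPARγ/+ cells the values were 0.738, 0.826 and 0.940 FPKM on 0d and 1.16, 1.56 and 1.35 FPKM on 5d. All libraries of PPARγ/+_5d exceeded those of PPARγ/+_0d, whereas the WT libraries overlapped. The log2 difference was 0.64 in PPARγ/+ cells (interval 0.25 to 1.02, adjusted p = 0.0167) and 0.39 in WT cells (interval -0.13 to 0.91, adjusted p = 0.207), so neither reached a fold of 2. Of the 3945 exonic bases of *Mest*, 912 are shared with *Copg2* on the other strand, whose group means were 7.66 to 9.12 FPKM, and the library kit does not mark strand, so reads of these bases cannot be told apart.

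*Plagl1* (ENSMUSG00000019817, chromosome 10, 13060504 to 13131694, plus strand) encodes a zinc finger factor known to restrain the cell cycle and to act on other imprinted genes. It was measured at 0.0857, 0.137 and 0.138 FPKM in WT_0d and at 0.00502, 0.0265 and 0.0618 FPKM in WT_5d. In PPARγ/+ cells the values were 0.141, 0.108 and 0.105 FPKM on 0d and 0.0308, 0.0654 and 0.0206 FPKM on 5d. In both cell types the 5d libraries lay below the 0d libraries, on 1 to 27 fragments per library. The log2 difference of FPKM + 0.1 was -0.76 in WT cells (interval -1.40 to -0.12, adjusted p = 0.0655) and -0.66 in PPARγ/+ cells (interval -1.22 to -0.10, adjusted p = 0.0571). Neither reached a fold of 2 on this scale, and with a pseudocount of 0.01 the differences became -1.91 and -1.48 and passed the call, so their size depends on the value added. *Plagl1* reached 0.1 FPKM, the level needed for testing, only in libraries of 0d. Its lower level on 5d was therefore partly set in advance, and these calls are no separate support for it.

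*Ndn* (ENSMUSG00000033585, chromosome 7, 62346569 to 62350262, plus strand), which encodes necdin, a MAGE family protein known from postmitotic neurons and muscle precursors, was read with 2 to 7 fragments per library. Its FPKM was 0.218, 0.12 and 0.105 in WT_0d and 0.0475, 0.0941 and 0.0532 in WT_5d. In PPARγ/+ cells it was 0.0744, 0.139 and 0.111 on 0d and 0.0876, 0.0845 and 0.0977 on 5d. The libraries of WT_5d lay below those of WT_0d and those of the PPARγ/+ groups overlapped, at values close to the floor of 3 fragments (0.0697 to 0.0979 FPKM). No fold from 0d to 5d is therefore stated, and the differences shown for *Ndn* elsewhere rest on these few fragments. *Plagl1* and *Ndn* passed the filter on low values only through libraries of 0d, so a lower level on 5d was partly set by that filter.

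*Grb10* (ENSMUSG00000020176, chromosome 11, 11930508 to 12038683, minus strand), an adaptor protein that dampens signaling of the insulin and IGF1 receptors, did not pass the filter. Its fragments were 0, 0 and 3 in WT_0d, 5, 8 and 1 in WT_5d, 1, 1 and 0 in PPARγ/+_0d, and 3, 0 and 1 in PPARγ/+_5d. The highest value was 0.0456 FPKM in replicate 2 of WT_5d, and the groups overlapped.

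Read by comparison, *H19* was the only one of the 5 tested members that passed the call in WT cells over differentiation, as higher, where 16.5% of the 18023 genes tested were called, 8.94% as higher and 7.53% as lower. In PPARγ/+ cells 2 of the 5 were called (*H19* and *Peg3*, both higher), where 15.2% of all genes were called, 9.11% as higher and 6.06% as lower. By overlap of libraries alone, *H19* was higher on 5d without overlap in WT cells, as were 20.2% of all genes. In PPARγ/+ cells *H19*, *Mest* and *Peg3* were higher without overlap, as were 23.8% of all genes. No count of lower members is given, because *Plagl1* and *Ndn* passed the filter only through 0d. The median log2 change of the 5 tested members was that of *Peg3* in WT cells (0.135) and that of *Mest* in PPARγ/+ cells (0.636), neither of them called. Over all genes tested it was -0.08 and -0.10. The 5 include *Plagl1* and *Ndn*, so these medians show no shift of the set.

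**Figure D2:**
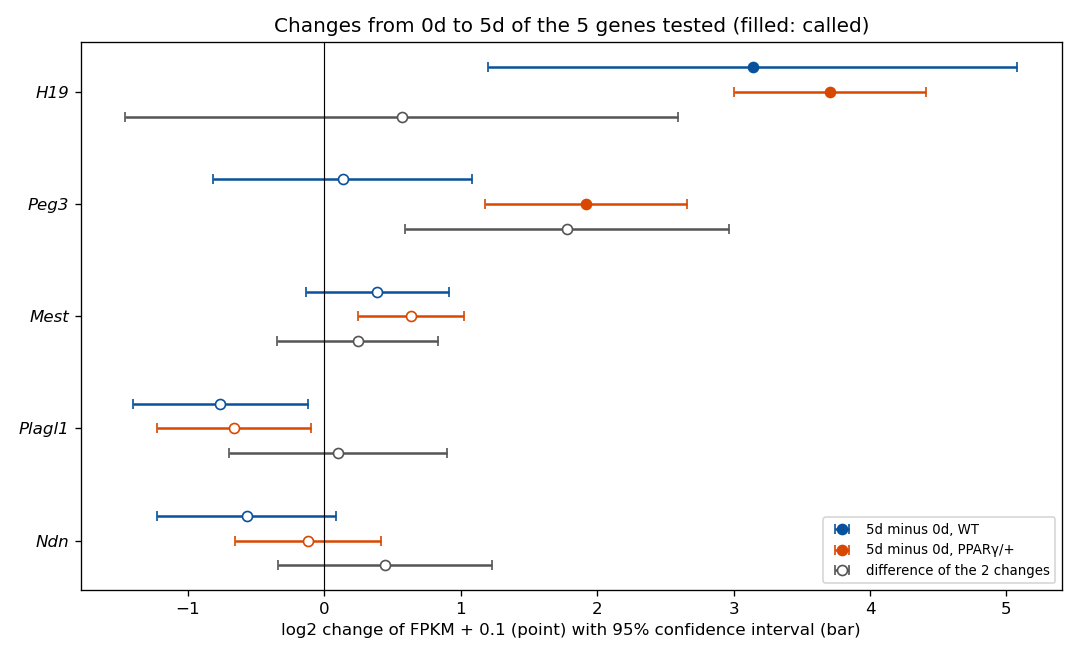
The log2 change of FPKM + 0.1 from 0d to 5d (points, filled where called) with its 95% confidence interval (bars) for the 5 tested genes, in WT cells, in PPARγ/+ cells, and as the difference of these changes. *H19* stands at 3.14 and 3.71 with wide overlap of the intervals, and *Peg3* at 0.13 and 1.92 with an interval of their difference from 0.59 to 2.97. *Plagl1* and *Ndn* rest on few fragments and passed the filter only through libraries of 0d.

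Whether the change over differentiation differed between the cell types was asked with an interaction term in 1 fit of the 12 libraries, which called 0.760% of all genes. None of the 5 members was called by limma at the adjusted p, and 1 of them, *Peg3*, had an unadjusted p under 0.05, as did 12% of all genes. For *Peg3* the log2 change was 1.78 larger in PPARγ/+ cells (interval 0.59 to 2.97, unadjusted p = 0.00704, adjusted p = 0.193), and without replicate 3 of WT_5d it was 1.38 larger. For *H19* the difference of the changes was 0.57 (interval -1.46 to 2.59, adjusted p = 0.861), which leaves room for a larger rise in either cell type, and it turned to -0.18 without replicate 3 of WT_5d and to -0.03 without replicate 2 of WT_0d. *Mest*, *Ndn* and *Plagl1* gave differences of 0.25, 0.45 and 0.10, on few fragments for *Ndn* and *Plagl1*, which passed the filter only through 0d.

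Before differentiation, 1 of the 5 members was called between the cell types (*Peg3*, lower in PPARγ/+ cells), where 1.59% of all genes were called and 1.23% as lower. *Peg3* stood at 11.7 ± 2.44 FPKM in WT_0d and 1.94 ± 0.841 FPKM in PPARγ/+_0d, a log2 difference of -2.61 (SE 0.34, interval -3.45 to -1.78, adjusted p = 0.0226), or 6.11-fold lower. The size held from -2.90 to -2.26 when single libraries were left out, but the adjusted p was then 0.0642, 0.0816 or 0.0655 without replicate 1, 2 or 3 of WT_0d, and 0.0601 or 0.0555 without replicate 1 or 3 of PPARγ/+_0d. The call was also lost without a filter on low values (adjusted p = 0.0641). For *H19* the log2 difference was -1.87 (interval -3.35 to -0.39, unadjusted p = 0.0213, adjusted p = 0.152), which did not pass. The libraries of both genes did not overlap between the cell types, as was so for 13.1% of all genes in this direction.

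On 5d none of the 5 members was called by limma between the cell types, where 0.155% of all genes were called, and none had an unadjusted p under 0.05, where 12.7% of all genes did. *Pparg*, the gene put into the cells, was called on this day. Its call was lost in 4 of 6 fits with a library left out (limma adjusted p up to 0.151). The lack of called members therefore does not show that the cell types were alike. No member was free of overlap between the cell types on this day, as 10.2% of all genes were with higher and 8.31% with lower values in PPARγ/+ cells. For *H19* the log2 difference was -1.30 in PPARγ/+ cells (interval -2.91 to 0.31, adjusted p = 0.458). Without replicate 3 of WT_5d, the difference of *H19* was -2.05 and passed the call (adjusted p = 0.0194), so this library decided it. *Peg3* differed by -0.83 (interval -1.80 to 0.14, adjusted p = 0.435), and by -1.23 without that library (adjusted p = 0.0550). *Mest*, *Plagl1* and *Ndn* gave differences of -0.03, 0.09 and 0.21, on few fragments for *Plagl1* and *Ndn*.

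The gene put into the cells was checked in every library. *Pparg* stood at 5.10 to 7.56 FPKM in WT_0d and 3.12 to 4.59 FPKM in WT_5d, against 28.0 to 46.4 FPKM in PPARγ/+_0d and 40.1 to 92.7 FPKM in PPARγ/+_5d, so the cell types did not overlap, and reads of the inserted and the resident gene cannot be told apart. The libraries held 18581300 to 26073154 mapped fragments. The 6 markers of differentiated muscle (*Myog*, *Ckm*, *Myh3*, *Acta1*, *Tnnt3* and *Mymk*) summed to 9.88 to 103 FPKM in WT_0d and 7.20 to 23.4 FPKM in PPARγ/+_0d. On 5d they summed to 3973, 3045 and 896 FPKM in WT_5d and to 923 to 1086 FPKM in PPARγ/+_5d, so replicate 3 of WT_5d stood apart from the other WT libraries in these markers as it did in *H19*. The 4 markers of dividing cells (*Mki67*, *Top2a*, *Ccnb1* and *Cdk1*) summed to 127 to 197 FPKM on 0d and 15.1 to 22.4 FPKM on 5d. The 6 adipocyte markers summed to at most 0.0794 FPKM in WT cells, 2.90 to 5.04 FPKM in PPARγ/+_0d and 13.3 to 67.2 FPKM in PPARγ/+_5d, with *Lep* at 0 throughout. Endothelial markers summed to at most 0.0485 FPKM, and the 2 leukocyte markers to 2.0 to 5.09 FPKM, which was nearly all *Cd68*, since *Ptprc* reached at most 0.0065 FPKM.

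*H19* followed the markers of differentiated muscle across libraries. On the log2 scale its Pearson correlation with their sum was 0.949 over 12 libraries (Spearman 0.965; 0.934 without the 2 libraries farthest from the median), and 0.829 and 0.995 over the 6 libraries of 0d and of 5d. *Peg3* followed them less closely, with 0.578 over 12 libraries (Spearman 0.497; 0.62 without the 2 farthest) and 0.475 and 0.949 on 0d and 5d. Libraries of a group share cell type and day, so the values are descriptions. The part of the muscle markers in the changes of *H19* and *Peg3* was not tested, and in bulk RNA a smaller number of differentiated cells and less RNA per cell cannot be told apart.

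*Igf2*, the paternally expressed neighbor of *H19* and a growth factor of muscle, was measured at 1.0, 4.36 and 0.385 FPKM in WT_0d and 40.4, 26.8 and 7.99 FPKM in WT_5d. In PPARγ/+ cells it was at 0.387, 0.771 and 1.69 FPKM on 0d and 6.05, 6.92 and 9.20 FPKM on 5d. As with *H19*, the libraries of 5d lay above those of 0d in both cell types, and replicate 3 of WT_5d was the lowest of its group. The log2 change was 3.95 in WT cells (SE 0.92, adjusted p = 0.0176; 4.63 without replicate 3 of WT_5d, and 3.22 to 4.82 over single omissions) and 3.02 in PPARγ/+ cells (SE 0.45, adjusted p = 0.00177). Of the 5723 exonic bases of *Igf2*, 3694 are shared with other annotated genes, mostly on the same strand. How reads of these bases were counted is not given, so the level of *Igf2* and its ratio to *H19* are uncertain. *H19* exceeded *Igf2* by FPKM 31.8 to 152 times on 0d and 46.3 to 62.7 times on 5d, a narrower range than before differentiation. Their correlation was 0.963 over 12 libraries (Spearman 0.923; 0.968 without the 2 farthest libraries), 0.779 on 0d and 0.989 on 5d. By this measure *Igf2* stood at place 65 of 11680 genes in likeness to *H19*.

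**Figure D3:**
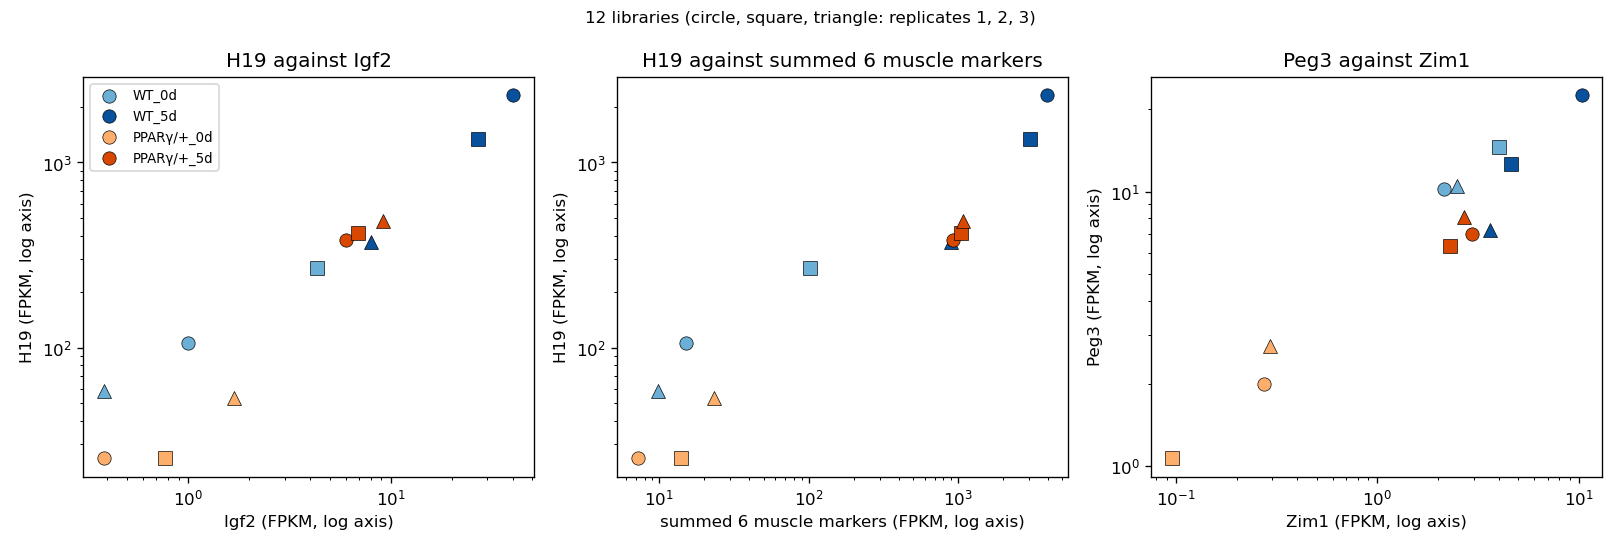
FPKM on log axes in 12 libraries (colors for groups, circle, square and triangle for replicates 1, 2 and 3): *H19* against *Igf2*, *H19* against the sum of 6 muscle markers, and *Peg3* against *Zim1*. *H19* and *Igf2* increased together across libraries, replicate 3 of WT_5d lay next to the PPARγ/+_5d libraries in the first 2 panels, below them in *H19* and in the muscle markers, and PPARγ/+_0d was lowest in the third.

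*Zim1*, the maternally expressed zinc finger neighbor of *Peg3*, was measured at 2.15, 3.99 and 2.48 FPKM in WT_0d and 10.3, 4.58 and 3.62 FPKM in WT_5d. In PPARγ/+ cells it was at 0.274, 0.0955 and 0.294 FPKM on 0d and 2.93, 2.29 and 2.69 FPKM on 5d. The libraries of PPARγ/+_0d were the lowest, as with *Peg3*. *Zim1* differed by -3.23 on the log2 scale between the cell types on 0d (SE 0.36, adjusted p = 0.0170) and rose by 3.15 in PPARγ/+ cells from 0d to 5d (SE 0.29, adjusted p = 2.61e-04). The first of these calls was lost without replicate 2 or 3 of WT_0d (adjusted p = 0.0582 and 0.0568) or of PPARγ/+_0d (0.0516 and 0.0674), and also without a filter on low values (adjusted p = 0.0504). Its interaction was 2.17 (interval 0.98 to 3.37, adjusted p = 0.115), and passed without replicate 1 of WT_5d (2.61, adjusted p = 0.0299).

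*Peg3* exceeded *Zim1* by FPKM 3.65 to 4.74 times in WT_0d, 2.01 to 2.75 times in WT_5d, 7.28 to 11.2 times in PPARγ/+_0d and 2.39 to 3.01 times in PPARγ/+_5d. The ratio was thus highest where both genes were lowest. Their correlation was 0.965 over 12 libraries (Spearman 0.839; 0.909 without the 2 farthest libraries), 0.994 on 0d and 0.960 on 5d, and *Zim1* stood at place 5 of 11680 genes in likeness to *Peg3*. Of the 8 genes listed from *Zim2* to *Usp29*, 5 were at 0 in all libraries, and *Usp29*, which starts beside *Peg3* and runs the other way, stood at 0.00469 to 0.102 FPKM. From *H19* to *Igf2*, 4 of the 7 genes listed were at 0, as were 1 of 4 in the domain of *Ndn* (*Ndn* to *Peg12*, highest value 0.736 FPKM) and 1 of 4 from *Grb10* to *Ddc* (highest 0.290 FPKM). Short RNAs are annotated in some of these stretches, such as *Mir675* in *H19*, and the libraries were not made for them. The shares at 0 therefore do not compare the domains.

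The genes most like each member over the 12 libraries were taken by Pearson correlation of log2(FPKM + 0.1) among tested genes with a mean of at least 1 FPKM. For *H19* they were *Chrna1* (0.995), a subunit of the muscle acetylcholine receptor, *Itga7* (0.992), a laminin-binding integrin subunit of muscle, and *Cobl* (0.990), an actin nucleator. *Peg3* was nearest to *Sulf1* (0.975), a sulfatase acting on heparan sulfate, *Cdk5r1* (0.970), an activator of CDK5, and *Ppargc1b* (0.969), a transcriptional coactivator. The nearest genes of *Mest* were *Zc3h12a* (0.976), *Ifitm3* (0.961) and *Cdc42ep1* (0.948). Those of *Plagl1*, on few fragments, were *Nr2f2* (0.973), *Mcub* (0.961) and *Nfyc* (0.959). Those of *Ndn*, also on few fragments, were *Abhd11* (0.935), *2310011J03Rik* (0.908) and *Lypla2* (0.899). *Plagl1* and *Ndn* passed the filter only through libraries of 0d.

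Among the members themselves, *H19* and *Peg3* correlated at 0.788 (Spearman 0.629), and at 0.596 without the 2 farthest libraries, which were replicates 1 and 2 of PPARγ/+_0d. After the group means were taken out, the value was 0.822. *H19* and *Plagl1* ran in opposite directions, at -0.847, which weakened to -0.527 after the group means were taken out. *H19* and *Mest* correlated at 0.678, which changed sign to -0.373 after the group means were taken out. *Plagl1* rests on 1 to 27 fragments per library. It passed the filter only through libraries of 0d, so its opposite direction to *H19* was partly set by that filter. *Peg3* stood at place 817 and *Mest* at place 1317 of 11680 genes in likeness to *H19*, and *H19* stood at place 219 in likeness to *Peg3*.

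The other imprinted genes were followed with a list of 49, of which 31 were tested. In WT cells 2 were higher on 5d (*Igf2*, and *Airn* at 1.08), 2 were lower (*Peg10*, and *Peg12* at -1.35) and 27 were not called, where 8.94% of all genes were called higher and 7.53% lower. Their median log2 change was 0.21 beside -0.08 over all genes. In PPARγ/+ cells 4 were higher (*Igf2*, *Zim1*, *Airn* at 1.58 and *Rasgrf1* at 2.07), 2 were lower (*Peg10*, and *Peg12* at -1.04) and 25 were not called, where 9.11% of all genes were called higher and 6.06% lower. Their median was 0.21 beside -0.10. *Airn*, *Peg12* and *Rasgrf1* stayed under 2 FPKM in every library and were named after their values were seen. By limma none of the 31 was called in the interaction, where 2 (*Zim1* and *Rasgrf1*) had an unadjusted p under 0.05, as did 12% of all genes. On 0d 1 was called (*Zim1*, lower in PPARγ/+ cells), where 1.59% of all genes were called and 1.23% as lower. An unadjusted p under 0.05 was found there for 9 of the 31, as for 21.7% of all genes. None was called on 5d, where 7 had an unadjusted p under 0.05, as did 12.7% of all genes.

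*Peg10*, a paternally expressed gene derived from a retrotransposon and known from the placenta, was the more abundant of the 2 genes called lower in both cell types. It was measured at 18.9, 21.8 and 39.7 FPKM in WT_0d, 9.76, 9.55 and 5.89 FPKM in WT_5d, 62.9, 42.7 and 33.7 FPKM in PPARγ/+_0d and 12.1, 11.2 and 12.1 FPKM in PPARγ/+_5d. Every library on 5d was below every library on 0d. *Peg10* fell by 1.62 on the log2 scale in WT cells (SE 0.32, adjusted p = 0.010) and by 1.92 in PPARγ/+ cells (SE 0.21, adjusted p = 4.74e-04), the opposite direction to *H19*.

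The factors that write, copy or guard imprints were followed with a list of 13, of which 12 were tested. In WT cells 3 were lower on 5d, where 7.53% of all genes were called lower, none was higher, and the median log2 change was -0.27 beside -0.08 over all genes. In PPARγ/+ cells 2 were lower, where 6.06% of all genes were, none was higher, and the median was -0.19 beside -0.10. *Uhrf1*, which brings the maintenance methyltransferase to replicated DNA, fell by 3.26 in WT cells (adjusted p = 1.74e-04) and by 2.76 in PPARγ/+ cells (adjusted p = 5.96e-05), from 33.9 to 45.2 FPKM in WT_0d to 3.30 to 4.81 FPKM in WT_5d. *Dnmt1*, that methyltransferase, fell by 1.75 and 1.41 (adjusted p = 2.49e-04 and 1.53e-04), from 29.5 to 38.6 FPKM in WT_0d to 9.43 to 10.6 FPKM in WT_5d. The markers of dividing cells were lower in the same libraries, and their part in these changes was not tested. *Trim28*, the corepressor that binds imprints through zinc finger proteins, fell by 1.03 in WT cells (adjusted p = 4.56e-04; -0.96 without replicate 1 of WT_5d and -0.90 with median-ratio scaling, neither called) and differed by -0.86 in PPARγ/+ cells. By limma none of the 12 was called between the cell types or in the interaction, where 4 on 0d, 2 on 5d and 1 in the interaction had an unadjusted p under 0.05, as did 21.7%, 12.7% and 12% of all genes. On 0d 1 of the 12 had an adjusted p of at most 0.05 but did not reach a fold of 2. *Zfp57*, named after its values were seen, was at 4.63 to 4.85 FPKM in WT_0d and 2.03 to 2.75 FPKM in PPARγ/+_0d. On 5d it was at 3.46 to 5.40 FPKM in WT cells and 1.70 to 1.86 FPKM in PPARγ/+ cells. Its libraries did not overlap between the cell types, as was so for 13.1% of all genes on 0d and 8.31% on 5d in this direction.

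**Figure D4:**
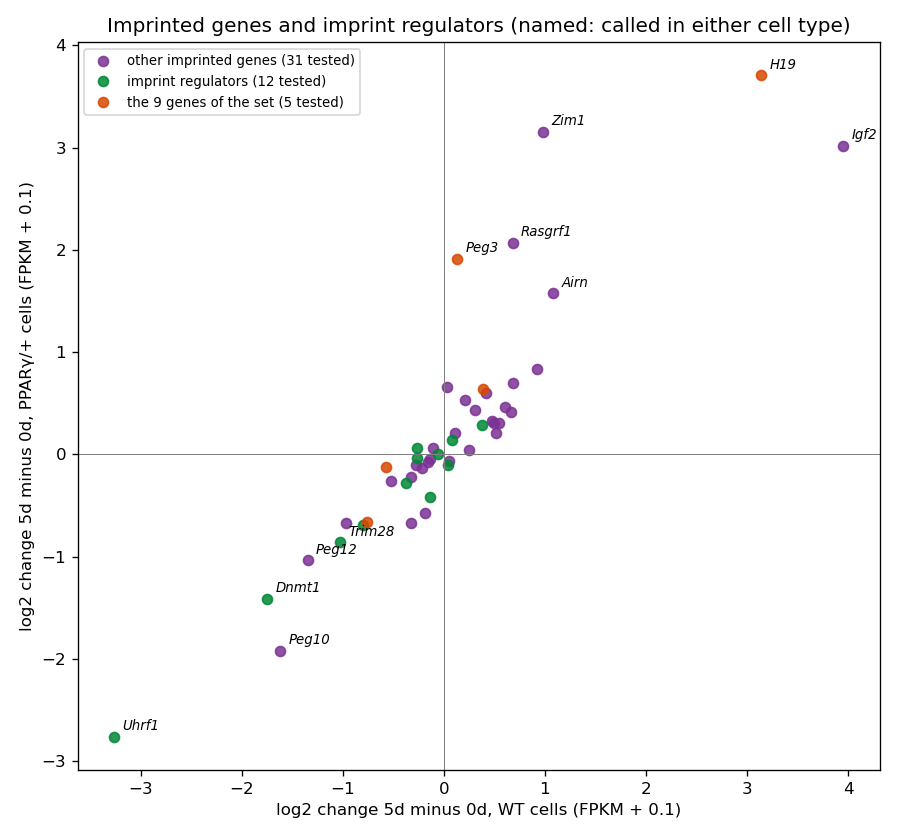
The log2 change of FPKM + 0.1 from 0d to 5d in WT cells (horizontal) and in PPARγ/+ cells (vertical), each from its own libraries, for the 5 tested genes of the set, 31 other imprinted genes and 12 imprint regulators, with names for those called in either cell type. *H19* and *Igf2* stand at the upper right, *Uhrf1*, *Peg10* and *Dnmt1* at the lower left, and *Peg3*, *Zim1* and *Rasgrf1* lie above 1 on the vertical axis and below 1 on the horizontal axis.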

How the data were processed

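Paired-end RNA-seq of C2C12 cells gave 12 libraries, 3 in each of 4 groups, made with a TruSeq kit that does not mark strand. The authors used Trim Galore for trimming, STAR for alignment to GRCm38 (the submitters' processing notes name mm9) and HTSeq for counting, with a strand setting not given in the sources used here, and deposited FPKM for 46983 genes. A deposited log2 table holds log2(FPKM + 1), with differences of at most 5.3e-14, and was not used further.

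log2(FPKM + 0.1) was tested for 18023 genes reaching 0.1 FPKM in at least 3 libraries, in limma 3.58.1 (empirical Bayes with a trend, R 4.3.3). Adjusted p-values (Benjamini-Hochberg) are over all genes tested. 5d was compared with 0d within each cell type on its own 6 libraries, with a call at an unadjusted p of at most 0.05 and a fold of at least 2, as in the study. The cell types were compared on 0d and on 5d with a call at a fold of at least 2 and an adjusted p of at most 0.05, and the interaction over 12 libraries was called at that adjusted p alone. These comparisons share libraries. The fits were tested on simulated data.

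Mapped fragments per library (18581300 to 26073154) were recovered from the commonest FPKM step times exonic length. The annotated length gave whole fragments, within 0.01, for 21224 of 27138 genes above 0, and other lengths, such as those of *H19*, *Peg3*, *Ndn* and *Rian*, were inferred from the smallest step. Positions are GENCODE M21 (GRCm38), and sequences are from RefSeq (GRCm38.p6). Tables and plots used Python 3.11.15.

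The members and lists were chosen with earlier results of these data known. Besides the 9 members and *Pparg*, genes were named if they were other imprinted genes with a mean of at least 5 FPKM in a group and a call, imprint regulators with a call, or the 3 tested genes nearest to a member by correlation. Alternatives tried were another pseudocount (1 or 0.01), no filter or a filter at 1 FPKM, median-ratio scaling, an adjusted p for the calls over time, all 12 libraries in one fit, a replicate block, and each library left out in turn.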

Additional observations from a re-analysis of the deposited data

How the results depend on the processing

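Of 422 values for named genes under 8 settings other than leaving out a library, 411 kept their direction and call, 11 changed call and 0 reversed. The filters, the replicate block, the single fit and the adjusted p leave the log2 difference of a gene as it was. Only the pseudocounts and the scaling could therefore turn a direction, and the count of reversals says little about robustness. Median-ratio scaling moved the median log2 change of all genes from -0.08 to 0.02 in WT cells and from -0.10 to 0.02 in PPARγ/+ cells, and the members' calls did not change with it. With a pseudocount of 1, the genes called numbered 1441 in WT cells and 1241 in PPARγ/+ cells between 0d and 5d (2970 and 2735 as reported), and 115 on 0d and 8 on 5d between the cell types (287 and 28 as reported). With a pseudocount of 0.01, 71 genes were called on 5d and 2 members (*H19* and *Plagl1*) in WT cells. *Plagl1* then also passed the call in PPARγ/+ cells (-1.48), but it passed the filter only through libraries of 0d. A filter at 1 FPKM left 1806 calls in PPARγ/+ cells. Without a filter, 107 genes and 0 members were called on 0d. All 12 libraries in one fit gave 199 calls on 5d. Causes were not tested.

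Leaving out single libraries gave 42 to 527 calls in the interaction (137 as reported), 55 to 137 on 0d with 0 to 1 members, and 1 to 723 on 5d with 0 to 1 members. It turned the sign of differences that were not called, which ranged from -0.27 to 0.53 for *Peg3* in WT cells, and in the interaction from -0.18 to 1.14 for *H19* and from -0.048 to 0.26 for *Plagl1*. Between the cell types they ranged from -0.13 to 0.054 for *Plagl1* and from -1.28 to 0.32 for *Igf2* on 0d, and on 5d from -0.18 to 0.12 for *Mest*, from -0.055 to 0.26 for *Plagl1* and from -0.065 to 0.033 for *Trim28*.

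The replicate numbers did not pair the libraries: deviations from group means of libraries with the same number correlated at -0.068 to 0.083 over 12 pairs, and a library was nearest to its own number in 10 of 24 checks. With the replicate block, calls numbered 3029 in WT cells and 2766 in PPARγ/+ cells between 0d and 5d, 61 in the interaction, 0 on 0d and 0 on 5d, with 0 members on 0d (adjusted p = 0.156 for *Peg3* and 0.146 for *Zim1*). Depth limits *Ndn*, *Plagl1* and *Grb10*, which rest on at most 27 fragments per library, and *Meg3*, *Rian* and *Dlk1*, which rest on at most 2.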
